A study of Xenopus laevis with 4 samples.

Results

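The genes described here encode the intraflagellar transport (IFT) trains, the Bardet-Biedl complex (BBSome) and the transition zone of the cilium, together with the wider family of tetratricopeptide repeat (TPR) genes named ttc. They were all array symbols that, without the homeolog ending .L or .S, begin with ift, bbs, tctn, nphp, b9d, mks, bbip or ttc, or carry a fixed further name such as hspb11, cluap1, tulp3, iqcb1, lztfl1 or intu. The rule found 41 symbols of 11303 genes with 1 symbol on the array, under 40 names, because ift20 was present as both homeologs. Of the 41, 34 came from the long (L) and 7 from the short (S) subgenome of this allotetraploid frog. Each symbol was read by its brightest probe set. RNA came from presumptive ectoderm of Xenopus laevis, cut as animal caps at stage 9 to 10. Explants with MCI-HGR came from embryos given mRNA for ICD and for MCI-HGR at the 2-cell stage, and the control explants from embryos given mRNA for ICD alone. All explants thus carried ICD, the usual short name of the Notch intracellular domain, which is known to hold back multiciliated cells in this tissue, and dexamethasone was added to every group at stage 11.5, with harvest after 5 h at about stage 14. MCI-HGR is a hormone-inducible form of multicilin, the nuclear regulator that turns ectodermal cells into multiciliated cells. No group without ICD, without dexamethasone or with a hormone-binding domain alone was analysed here. Each group had 2 arrays, called MCI-HGR arrays and ICD arrays below, and the labels do not tell whether replicates had separate parents. The p-values therefore cover the spread between these 4 arrays, which may be technical.

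Cilia are built at their tips, and IFT trains carry the parts there and back. IFT-B, with a core and a peripheral part, rides outward on kinesin-2, while IFT-A and its adaptors travel with dynein-2 on the return and bring membrane proteins in. The BBSome moves membrane proteins on these trains, and the transition zone at the base of the cilium, made of the MKS and NPHP modules, gates what enters. Mutations in many of these genes cause ciliopathies in humans. In Xenopus epidermis the same machinery serves the motile cilia of multiciliated cells and the lone cilia of other tissues.

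The 4 arrays parted by replicate number in overall signal and in tissue markers. Median signal was 44.2 and 37.1 on the MCI-HGR arrays and 45.4 and 37.6 on the ICD arrays, and the mesoderm gene tbxt.S gave 474.1 and 25.8 on the MCI-HGR arrays and 930.4 and 12 on the ICD arrays, in the order replicate 1 and replicate 2. Arrays with the number 1 are called array set 1 and those with the number 2 array set 2, with 1 array from either group in a set. Differences are therefore given from the fit without a block, from the fit that takes the array set as a block and within each set. Epidermal markers were bright on all arrays, with summed signals over 13 symbols of 38330 and 46268 on the MCI-HGR arrays and 35073 and 46128 on the ICD arrays. Within that list members moved both ways, with 3 rises and 2 falls in the blocked fit described below. tp63.S, of a basal epidermal regulator, had 119.1 and 302.6 on the MCI-HGR arrays, against 329.1 and 745.8 on the ICD arrays, and tp63.L fell too (log2 differences of -1.38 and -1.01). grhl3.S had 1676 and 1413 on the MCI-HGR arrays, against 507 and 789 on the ICD arrays, and rose as did grhl3.L and krt12.4.S (log2 differences of 1.28, 0.70 and 0.36). The 8 measured symbols of multiciliated cell markers summed to 13674 and 9084 on the MCI-HGR arrays and 1017 and 894 on the ICD arrays. These sums include mcidas.S, the multicilin gene, whose probe set may read the injected mRNA. It had 384.2 and 141.5 on the MCI-HGR arrays and 9.7 and 17.1 on the ICD arrays. Ionocyte markers summed to 543 and 639 on the MCI-HGR arrays and 439 and 545 on the ICD arrays, with 0 calls. Goblet or small secretory cell markers summed to 334 and 1119 on the MCI-HGR arrays and 244 and 1187 on the ICD arrays. In that list 1 of 3 tested symbols rose, foxa1.S by 1.94-fold, while foxa1.L and itln1.L, at log2 differences of -0.73 and 0.19, did not pass. Neural markers summed to 6414 and 2907 on the MCI-HGR arrays and 6652 and 2174 on the ICD arrays. Of 6 symbols 2 rose with MCI-HGR, sox2.L by 2.05-fold with overlapping groups and ncam1.L by 1.56-fold. By contrast ncam1.S, sox3.S, sox3.L and pax6.L did not pass, with log2 differences of -0.38, -0.21, -0.012 and 0.40. The sums were, for the mesoderm markers, 853 and 136 on the MCI-HGR arrays and 1729 and 137 on the ICD arrays, and for the endoderm markers 263 and 151 on the MCI-HGR arrays and 319 and 162 on the ICD arrays, with 0 calls in either list. The middle to 3′ ratio of the actin control was 0.569 and 0.401 on the MCI-HGR arrays and 0.64 and 0.652 on the ICD arrays, lower with MCI-HGR in both sets. The end ratios of the gapdh and dap controls were also lower in both sets. The 5′ to 3′ ratio of the ef1a control was 2.31 and 3.27 on the MCI-HGR arrays and 3.69 and 1.85 on the ICD arrays. It was thus lower with MCI-HGR in set 1 and higher in set 2. The part of these marker and RNA end differences in the results was not tested. In bulk RNA, more ciliated cells and more RNA per cell cannot be told apart.

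Of the 41 genes, the 31 with a ciliary role had a median log2 difference of 1.08 (0.73 in set 1 and 1.29 in set 2). By the signals as given 19 of these 31 reached 2-fold, ttc29.L among them. The 10 ttc genes with no assigned ciliary role had a median log2 difference of -0.067. Both MCI-HGR arrays lay above both ICD arrays for 27 of 41 genes, against 12.6% of all named genes, and below both for 3, against 10.5%. The median log2 difference over all 41 was 1.0 (0.55 in set 1 and 1.18 in set 2), against 0.0039 over all named genes. By the signals as given 20 genes reached 2-fold, against 5.02% of named genes. Among these is ttc29.L, which lay under the highest tag control on both ICD arrays and on 1 MCI-HGR array. With its ICD arrays set to that control, 19 genes reached 2-fold and the median was 0.90. In the fit without a block, 0 of the 39 genes tested passed an adjusted p of 0.05 (limma), as did 0% of the 9380 genes tested in either direction. At an unadjusted p of 0.05, 22 of 39 were higher and 0 lower, against 3.66% and 0.448% of all genes. With the array set as a block, 26 rose, against 6.72% of all genes, and 0 fell, against 3.32%. Rose and fell below mean that a gene passed in that blocked fit, while every SE after ± is from the fit without a block. The blocked fit has 1 residual degree of freedom and takes 26.2 more from the spread of all genes along the signal range. When the prior spread was not allowed to follow the signal, it took 2.42 degrees of freedom and called 0 of the 39, against 0.405% of all genes higher, with a smallest adjusted p = 0.0513 for hspb11.L. Before adjustment 26 of the 39 were above ICD and 1 below it at p of 0.05 in that fit, against 7.75% and 6.89% of all genes.

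**Figure D1:**
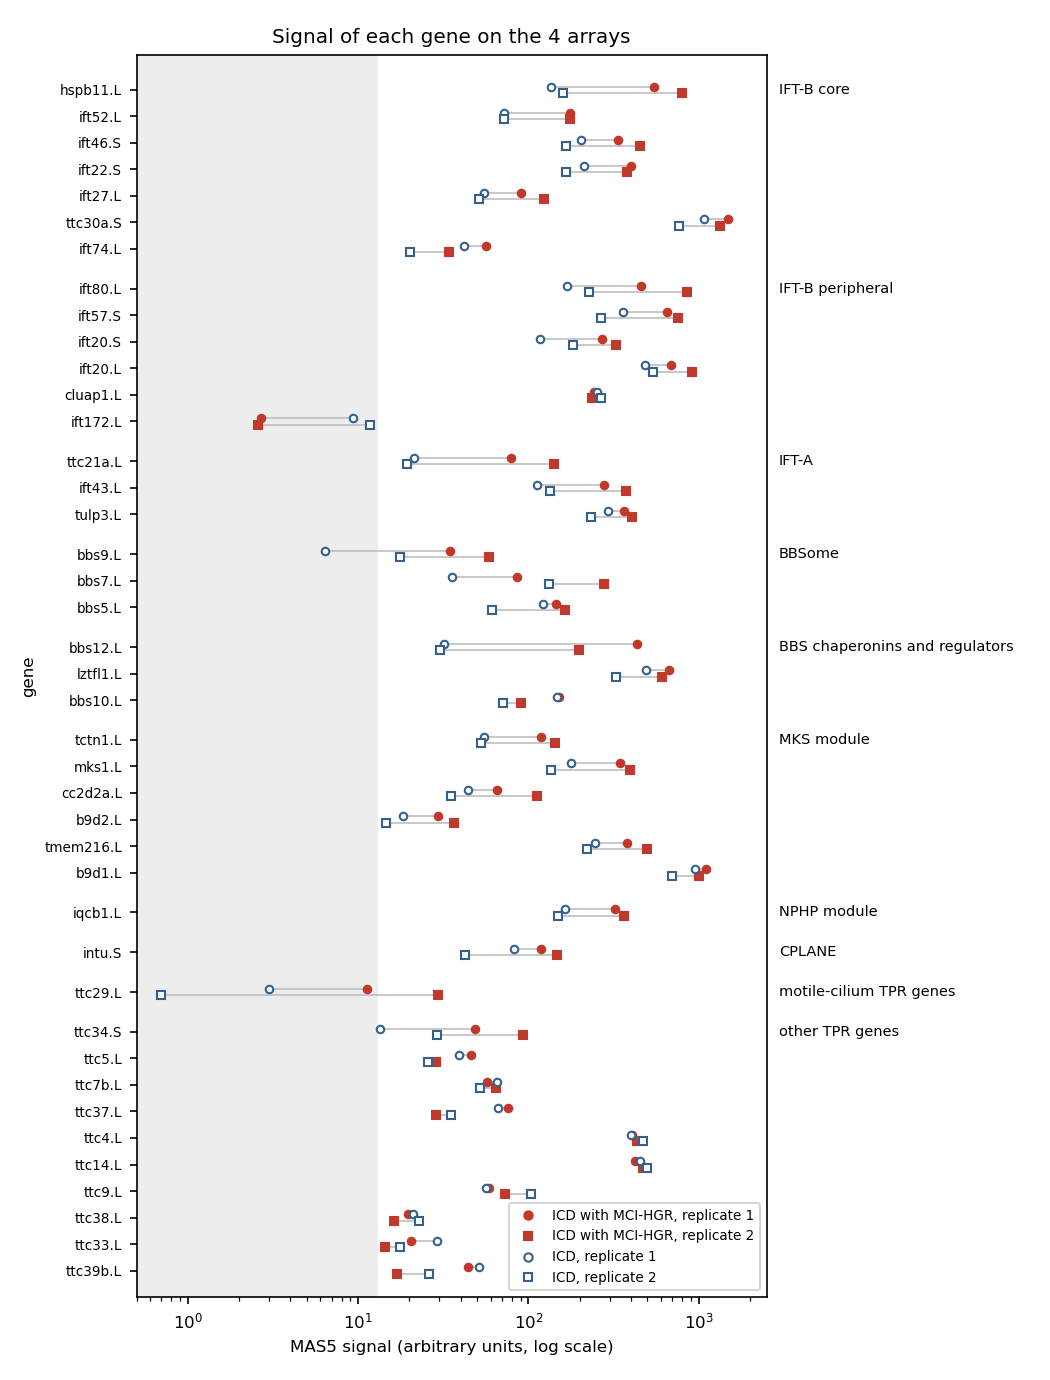
MAS5 signal (arbitrary units, log scale) of all 41 genes on the 4 arrays, grouped by role, with filled red symbols for the MCI-HGR arrays, open blue symbols for the ICD arrays, circles for replicate 1, squares for replicate 2 and grey lines joining arrays of a set. The shaded zone ends at 13, the highest tag control signal of any array. Red symbols lie to the right of blue ones for most ciliary genes, while ift172.L and ttc29.L lie largely in the shaded zone.

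The IFT-B core, which forms the backbone of the outward train, was measured through 7 genes. Of these 6 rose and 0 fell, against 6.72% and 3.32% of all genes. hspb11.L, encoding the subunit also called IFT25, had a signal of 546.6 and 794.4 on the MCI-HGR arrays, against 136.4 and 159.2 on the ICD arrays. ift27.L, encoding the small GTPase that pairs with it, had 91 and 123.3 on the MCI-HGR arrays, against 54.7 and 51.4 on the ICD arrays. For both genes the groups did not overlap, and within each set the fold of hspb11.L (4.01 in set 1 and 4.99 in set 2) was above that of ift27.L (1.66 and 2.40), a contrast between genes that was not tested. The log2 differences were 2.16 ± 0.27 for hspb11.L and 1.0 ± 0.31 for ift27.L (SE of the fit without a block, n = 2 per group; limma, adjusted p = 5.39e-14 and 0.000796 with the block, 0.143 and 0.825 without). ift52.L, which anchors the core, had 176.2 and 175.4 on the MCI-HGR arrays, against 72.3 and 71.5 on the ICD arrays. It was the steadiest gene of the core, with folds of 2.44 within set 1 and 2.45 within set 2 (limma, adjusted p of 1.19e-06 blocked and 0.315 unblocked). The cargo-binding subunit gene ift46.S had 335.9 and 449.8 on the MCI-HGR arrays, against 203.3 and 167.1 on the ICD arrays, and rose 2.11-fold. ift22.S, encoding a small GTPase-like subunit, had 399.9 and 378.6 on the MCI-HGR arrays, against 213.3 and 166.3 on the ICD arrays, and rose 2.07-fold. The groups did not overlap for either gene. ttc30a.S, the IFT70 gene known as fleer in zebrafish, had 1494 and 1334 on the MCI-HGR arrays and 1071 and 769 on the ICD arrays. It rose 1.56-fold, and its log2 difference of 0.64 became 0.40 without ICD replicate 2. ift74.L, whose product helps bind tubulin cargo, gave 56.1 and 34 on the MCI-HGR arrays and 42.1 and 20.2 on the ICD arrays, so the groups overlapped, and it did not pass (adjusted p = 0.23 with the block).

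Peripheral IFT-B subunits link the train to its motor and to cargo. Of 6 measured genes, 4 rose and 0 fell, against 6.72% and 3.32% of all genes tested. Of the others 1 did not pass and 1 was too dim to be tested. ift80.L had 456.4 and 859.1 on the MCI-HGR arrays, against 168 and 227 on the ICD arrays, and rose 3.21-fold, by 2.72-fold in set 1 and by 3.78-fold in set 2 (limma, adjusted p of 1.44e-11 blocked and 0.426 unblocked). ift57.S, an adaptor subunit, had 651 and 756.2 on the MCI-HGR arrays, against 360 and 268.3 on the ICD arrays, and rose 2.26-fold. The groups of both genes stood apart, with the highest value on the MCI-HGR array of set 2. ift20, whose product also works at the Golgi in mammalian cells, was the 1 name with both homeologs. ift20.S had 269.8 and 325.8 on the MCI-HGR arrays, against 117.5 and 183.7 on the ICD arrays, and ift20.L had 688 and 908.3 on the MCI-HGR arrays, against 481.5 and 540.1 on the ICD arrays. Both rose, ift20.S 2.02-fold (2.30 within set 1, 1.77 within set 2) and ift20.L 1.55-fold (1.43 within set 1, 1.68 within set 2), and whether the homeologs differ was not tested. Near-identical homeologs can share probes, so the .L and .S names are those of the annotation.

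cluap1.L, the gene of the subunit IFT38, did not pass. It had 242.7 and 236.8 on the MCI-HGR arrays, against 252.3 and 267.5 on the ICD arrays. The log2 difference was -0.12 ± 0.21 (SE without the block, n = 2 per group; limma, adjusted p = 0.723 with the block). ift172.L, of a large subunit that acts at the ciliary tip in Chlamydomonas, gave 2.7 and 2.6 on the MCI-HGR arrays and 9.3 and 11.8 on the ICD arrays. The highest tag control, a probe set with no target in the sample, reached from 9.2 to 13 on the 4 arrays. On its own array, ICD replicate 2 alone read ift172.L above that control, so no fold is given.

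IFT-A and its adaptors were measured through 3 genes, and all of these rose, against 6.72% of all genes. ttc21a.L, a relative of the IFT-A subunit gene ttc21b, had 79.5 and 140.6 on the MCI-HGR arrays, against 21.4 and 19.4 on the ICD arrays. ift43.L, a peripheral IFT-A subunit, had 276.1 and 373 on the MCI-HGR arrays, against 111.9 and 134.1 on the ICD arrays. The 2 groups stood well apart in both cases. ttc21a.L rose 5.19-fold (3.71 within set 1, 7.25 within set 2; limma, adjusted p of 3.74e-08 blocked and 0.237 unblocked). ift43.L rose 2.62-fold (2.47 within set 1, 2.78 within set 2; limma, adjusted p of 8.66e-09 blocked and 0.324 unblocked). tulp3.L, whose product bridges IFT-A to membrane receptors, had 365.5 and 408.3 on the MCI-HGR arrays, against 294.7 and 234.4 on the ICD arrays. It rose 1.47-fold, the smallest rise of the 3. The subunit genes wdr19, wdr35, ift122 and ift140 were not analysed here.

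The BBSome was read through 3 subunit genes, and all of these rose, against 6.72% of all genes. bbs9.L, of a scaffold subunit, had 34.5 and 58.8 on the MCI-HGR arrays, against 6.4 and 17.6 on the ICD arrays. bbs7.L, of a subunit with a propeller fold, had 85.3 and 278 on the MCI-HGR arrays, against 35.4 and 132.5 on the ICD arrays. bbs5.L, of a subunit that binds membrane lipids, had 145.8 and 164.6 on the MCI-HGR arrays, against 121.9 and 61.3 on the ICD arrays. The groups overlapped for bbs7.L, which was brighter on both arrays of set 2, while its fold was 2.41 in set 1 and 2.10 in set 2. The ICD array of set 1 read bbs9.L below its highest tag control, and with that array set to the control the fold was 2.98 in place of 4.24. The fold of bbs5.L was 1.2 in set 1 and 2.69 in set 2. With the block the adjusted p values were 3.8e-05, 1.16e-05 and 0.00421 for bbs9.L, bbs7.L and bbs5.L, and without it 0.825, 1 and 1 (limma). Leaving out 1 array, in the fit without a block, moved these values widely. Those fits also take in the difference between the array sets, because arrays of 1 set then outnumber those of the other. The log2 difference of bbs7.L, 1.17 on all arrays, was 0.22 without ICD replicate 1, 2.12 without ICD replicate 2, 2.02 without the MCI-HGR array of set 1 and 0.32 without that of set 2. That of bbs5.L, 0.84, was 0.35 without ICD replicate 2 and 1.34 without ICD replicate 1, and that of bbs9.L, 2.09, was 1.36 without ICD replicate 1.

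Of the 3 genes for factors that assemble or regulate the BBSome, 2 rose and 0 fell, against 6.72% and 3.32% of all genes. bbs12.L, of a chaperonin-like protein needed to assemble the complex, had 436.2 and 199 on the MCI-HGR arrays, against 32 and 30.1 on the ICD arrays. This was the largest log2 difference among the 39 genes tested, 3.25 ± 0.45 (SE, n = 2 per group), and folds of 13.6 within set 1 and 6.61 within set 2 (limma, adjusted p of 5.71e-13 blocked and 0.158 unblocked). Without the block, bbs12.L and hspb11.L passed in fits that left out 1 ICD array, at adjusted p = 0.0204 and 0.0421 without ICD replicate 1 and 0.0383 and 0.0411 without ICD replicate 2, where the lone ICD array is taken to vary like the other group. bbs10.L, of a related chaperonin-like protein, had 151.1 and 90.7 on the MCI-HGR arrays, against 148 and 71.1 on the ICD arrays. Its groups overlapped, its log2 difference was 0.19 ± 0.49 (SE without the block), and it did not pass (limma, adjusted p = 0.642 with the block). lztfl1.L, of a negative regulator of BBSome entry, had 670.6 and 609.1 on the MCI-HGR arrays, against 487.4 and 328.3 on the ICD arrays. It rose 1.60-fold, and its log2 difference of 0.68 was 0.39 without ICD replicate 2.

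**Figure D2:**
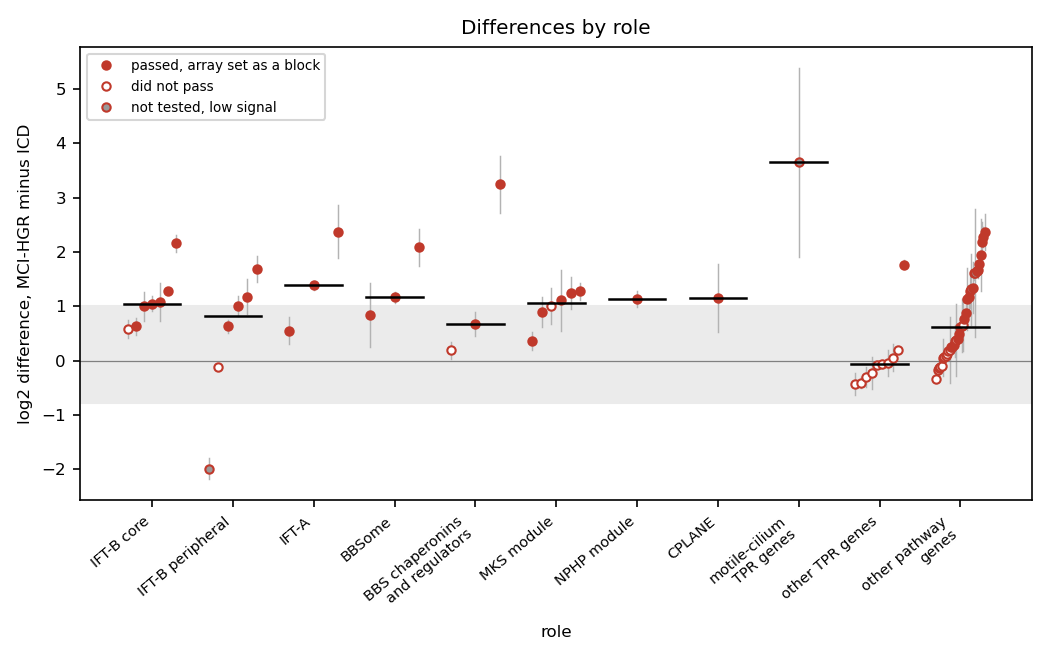
Log2 difference in signal, MCI-HGR minus ICD, for the 41 genes by role and for 37 other genes of ciliary transport and gating at the right, with grey lines from the value in set 1 to that in set 2 and black bars at the medians. Filled red points passed in the blocked fit, open points did not and grey points were too dim to be tested, and the grey band runs from the 5th to the 95th percentile of all named genes, -0.78 to 1.0. The largest value among genes tested is that of bbs12.L at 3.25, and 9 of 10 other TPR genes lie near 0.

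Of the 41 genes, 7 were placed at the transition zone. All 7 were higher on both MCI-HGR arrays than on both ICD arrays, and 6 rose. Of all named genes 12.6% were higher in this way, and of all genes tested 6.72% rose. Further transition zone genes are given below with the other pathway genes. Of those, tmem107.L and tmem237.L rose, while cep290.L and rpgr.S, with signals close to the tag controls, overlapped between groups and did not pass. The MKS module, a protein complex that spans the ciliary membrane at its base, gave 5 rises among its 6 genes of the 41. tctn1.L, of a tectonic, had 118.6 and 142.5 on the MCI-HGR arrays, against 54.5 and 52.6 on the ICD arrays. mks1.L, of a soluble B9-domain protein, had 345.1 and 397.1 on the MCI-HGR arrays, against 178.4 and 136 on the ICD arrays. Neither gene overlapped between groups, and they rose 2.43-fold and 2.38-fold (limma, adjusted p = 1.1e-05 and 8.44e-08 with the block, 0.398 and 0.329 without). tmem216.L, of a membrane protein of this module, had 378.4 and 500.1 on the MCI-HGR arrays, against 247 and 221.2 on the ICD arrays, and rose 1.86-fold. cc2d2a.L, of the protein that ties the module to the basal body, had 65.1 and 112.3 on the MCI-HGR arrays, against 44.4 and 35.3 on the ICD arrays. It rose 2.16-fold, by 1.47 within set 1 and 3.18 within set 2, and its log2 difference of 1.11 was 0.72 without MCI-HGR replicate 2.

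The other B9-domain genes of the module were both higher with MCI-HGR. b9d1.L had 1097 and 1008 on the MCI-HGR arrays, against 956 and 697 on the ICD arrays, while b9d2.L had 29.3 and 36.5 on the MCI-HGR arrays, against 18.4 and 14.5 on the ICD arrays. b9d1.L rose 1.29-fold, the smallest of the 26 rises, and its log2 difference of 0.37 was 0.14 without ICD replicate 2 and 0.59 without ICD replicate 1. b9d2.L had a larger log2 difference, 1.0 ± 0.38 (SE without the block), but did not pass (limma, adjusted p = 0.0524 with the block). iqcb1.L, of the protein also called nephrocystin 5, was the 1 gene of the 41 placed in the NPHP module here. It had 322.3 and 365.4 on the MCI-HGR arrays, against 163.2 and 149.3 on the ICD arrays. Its groups stood far apart relative to their spread, and it rose 2.20-fold (limma, adjusted p = 1.91e-07 with the block, 0.318 without). intu.S, the gene of the planar polarity effector Inturned, which brings IFT-A subunits to the basal body and is needed for cilia in Xenopus epidermis, had 118.4 and 146.7 on the MCI-HGR arrays, against 82.5 and 42.7 on the ICD arrays. It rose 2.22-fold, by 1.44 within set 1 and 3.44 within set 2 (limma, adjusted p of 0.000376 blocked and 1 unblocked), and its log2 difference of 1.15 was 0.68 without ICD replicate 2.

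The TPR genes form a family by sequence, not by function. The 10 with no ciliary role assigned here had a median log2 difference of -0.067, against 0.0039 over all named genes. Of these 10, 1 rose, 0 fell and 9 did not pass. These counts are near the shares of all genes, of which 6.72% rose and 3.32% fell. The exception was ttc34.S, with 48.7 and 93.1 on the MCI-HGR arrays, against 13.5 and 28.9 on the ICD arrays, which rose 3.41-fold (3.61 within set 1, 3.22 within set 2; limma, adjusted p of 1.19e-05 blocked and 0.888 unblocked). Its signal on ICD replicate 1 lay just above the highest tag control of that array, 13. ttc4.L, of a cochaperone, had 405.2 and 431.2 on the MCI-HGR arrays, against 401.2 and 471.3 on the ICD arrays, and ttc14.L had 422.6 and 472.3 on the MCI-HGR arrays, against 450.1 and 493.9 on the ICD arrays. The groups overlapped for both, and their log2 differences were -0.057 ± 0.20 and -0.078 ± 0.19 (SE, n = 2 per group). ttc37.L, of the complex that feeds mRNA to the exosome, ttc5.L, ttc7b.L, ttc9.L, ttc33.L, ttc38.L and ttc39b.L had log2 differences from -0.43 to 0.19. ttc38.L, cluap1.L and ift172.L were the 3 genes lower on both MCI-HGR arrays than on both ICD arrays. ttc29.L, of a protein of motile cilia and sperm tails, had 11.3 and 29.4 on the MCI-HGR arrays, against 3 and 0.7 on the ICD arrays. Only MCI-HGR replicate 2 read ttc29.L above the highest tag control of its array. With both ICD arrays set to that control the group means differed 1.60-fold. This is not a lower bound, because MCI-HGR replicate 1 also lay below the control. ttc29.L was too dim to enter the fit.

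Symbols can be read by more than 1 probe set, and 14 of the 41 were. ift80.L gave 3.21-fold on its brightest and 3.27-fold on its other probe set. ift57.S gave 2.26-fold and 1.59-fold, and both of its probe sets passed in a blocked fit over all probe sets, as 4.95% of named probe sets did in this direction. For these 2 genes the probe sets gave the same direction in each array set. cluap1.L had 4 probe sets that disagreed. Probe set Xl2.50133.1.S1_at had 211.4 and 299.5 on the MCI-HGR arrays, against 133.7 and 79.2 on the ICD arrays, and rose 2.45-fold (limma over probe sets, adjusted p = 0.000763 with the block, 0.871 without). The other 3, the brightest among them, had log2 differences of -0.12, -0.077 and -0.30 and did not pass, so the result for cluap1.L depends on which probe set is read. ift46.S had 4 probe sets with log2 differences of 1.08, 0.26, 0.21 and 0.48, of which the brightest alone passed. The second probe set of ift22.S, at 0.13 on the log2 scale, was not called, and the mean over both put the gene at 0.59, against 1.05 on the brightest. The second probe sets of mks1.L and tctn1.L had signals from 7 to 23.9, near the tag controls, and log2 differences of -0.11 and -0.51, without passing. That of bbs12.L had 22 and 6.9 on the MCI-HGR arrays, against 1.7 and 4.9 on the ICD arrays. It was higher in both sets but too dim to be tested, so the fold of bbs12.L rests on its brightest probe set. With the mean over probe sets in place of the brightest, the blocked fit called 22 genes and lost ift27.L, ift46.S, mks1.L and tctn1.L, whose log2 differences were then 0.78, 0.51, 0.57 and 0.38. The brightest probe sets of ift27.L and ift80.L are of a type that can share probes with other transcripts.

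**Figure D3:**
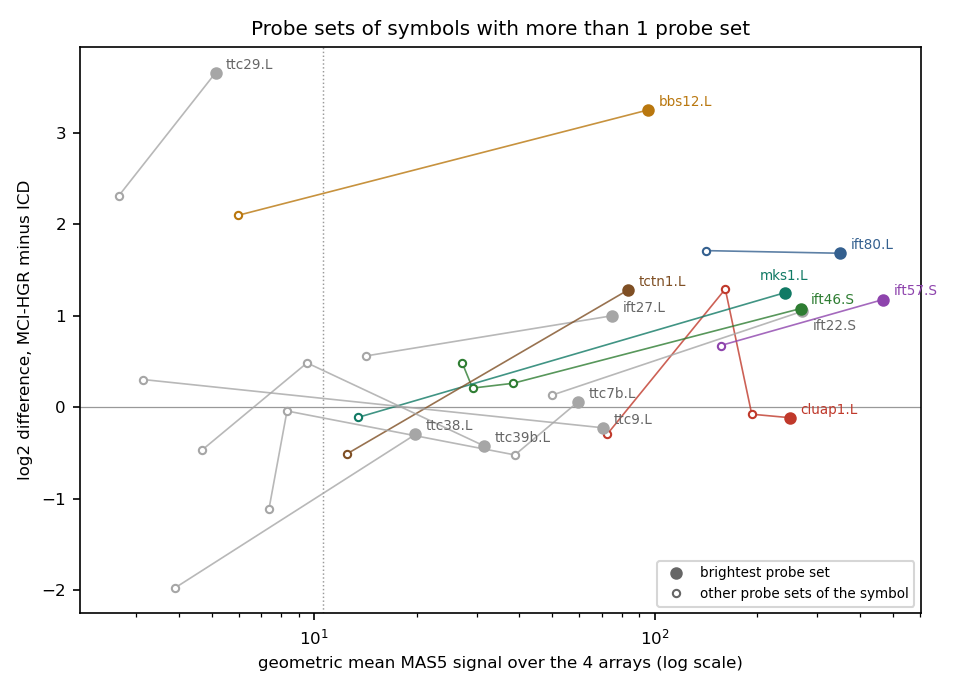
Log2 difference in signal, MCI-HGR minus ICD, against the geometric mean signal over the 4 arrays (log scale) for each probe set of the 14 symbols with more than 1, joined by lines within a symbol, with filled points for the brightest. The dotted line marks the filter at a signal of 10.6. The probe sets of ift80.L lie level at 1.68 and 1.71, while those of cluap1.L run from -0.30 to 1.29.

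Other genes of the pathway, from a list of motors, cargo-release factors and further transition zone genes, gave 20 rises and 0 falls among 35 tested of 37 measured, against 6.72% and 3.32% of all genes, and 0 were called without the block. Their median log2 difference was 0.62. kif3b.S, a motor subunit of the kinesin-2 that pulls trains outward, had 550 and 522 on the MCI-HGR arrays, against 326.8 and 257.7 on the ICD arrays, and rose 1.85-fold. Its partner gene kif3a.L had 144.4 and 96.1 on the MCI-HGR arrays, against 122.7 and 79.9 on the ICD arrays, and did not pass. dync2i2.L, the newer name of wdr34, a chain of the dynein-2 return motor, was named after its values were seen, because the rule holds its older name. It had 35.9 and 31.5 on the MCI-HGR arrays, against 13.8 and 15.1 on the ICD arrays, and rose 2.33-fold (limma, adjusted p = 0.0135 with the block, 0.753 without). odad4.L, the newer name of ttc25 and a gene of outer dynein arm docking, likewise rose 3.34-fold. The light chain gene dynlrb2.S, shared by cytoplasmic dyneins, rose 4.57-fold, while dynlrb1.L, at 0.085 on the log2 scale, did not pass.

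Cargo-release and entry factors differed among themselves. Of 15 genes tested in this group 8 rose and 0 fell, against 6.72% and 3.32% of all genes. The genes with the largest folds in this group, rabl2b.S and rabl2b.L, encode a small GTPase that binds IFT-B at the base of the cilium. rabl2b.S rose 5.17-fold and rabl2b.L 4.87-fold, and arl2bp.L, arl3.S and rp2.S, of the pathway that releases lipid-modified cargo in cilia, rose 3.16-fold, 3.04-fold and 2.54-fold. Smaller rises were those of unc119b.S, 1.56-fold, and unc119b.L, 1.40-fold with overlapping groups. arl6, encoding the GTPase that recruits the BBSome to membranes, had 106.6 and 136.9 on the MCI-HGR arrays, against 55.5 and 52 on the ICD arrays, and rose 2.25-fold. By contrast rab8a.S, rab8b.S, rab8b.L, rab11a.S and both rab3ip homeologs, of vesicle delivery to the cilium and elsewhere, had log2 differences from -0.34 to 0.060 and did not pass. In the group listed under transition zone and distal appendages, which also holds both cep41 homeologs, 6 of 8 genes rose. The rises ran from tmem237.L at 1.70-fold to cep41.L at 3.87-fold. Between them were cep83.L, of a distal appendage protein, at 3.45-fold and tmem107.L, of an MKS module membrane protein, at 3.16-fold. cep290.L and rpgr.S did not pass, with signals of 8.7 to 14.6, close to the tag controls.

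The transport and gating genes can be set beside other ciliary structures on the same arrays. The 30 measured symbols named cfap, rsph, tekt, dnah, dnai or dnal had a median log2 difference of 2.13, and 29 of them had both MCI-HGR arrays above both ICD arrays. Among 33 symbols of centrioles and centrosomes the median was 0.89, and 24 stood above in this way. Of all named genes 12.6% did so, and their median was 0.0039. The centriole symbols include those named cep with a number, so the cep41, cep83 and cep290 symbols above are counted here too. Among the 41 genes, the 16 IFT genes had a median of 1.03, the 7 transition zone genes 1.11 and the 6 BBS genes 1.01. Whether these medians differ was not tested.

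Array set 2 gave larger differences than set 1 for most of these genes. Of 31 genes higher with MCI-HGR in both sets, 25 had the larger log2 difference in set 2, which is 80.6%, against 58.0% of 3502 named genes higher in both sets and 89.7% of 29 such axoneme symbols. All 7 IFT-B core genes and all 7 transition zone genes of the 41 behaved so, while bbs12.L, bbs9.L, bbs7.L, ift20.S, ttc34.S and ttc5.L had the larger difference in set 1. mcidas.S, the multicilin gene, had 384.2 and 141.5 on the MCI-HGR arrays, against 9.7 and 17.1 on the ICD arrays, so the MCI-HGR array with less mcidas.S signal lay in the set with the larger differences. Whether its probe set reads the injected mRNA or the embryo's own cannot be told apart. foxj1.S, of a transcription factor for motile cilia genes, had log2 differences of 3.75 in set 1 and 3.31 in set 2. Across the 41 genes the differences of the 2 sets, which share no array, had a Pearson r of 0.80, against 0.24 across all 11303 named genes. Among the named genes 1923 were too dim to be tested, against 2 of the 41, and the part of dim signals in the lower r was not tested. Both values of r are descriptions across genes, which are not independent replicates.

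**Figure D4:**
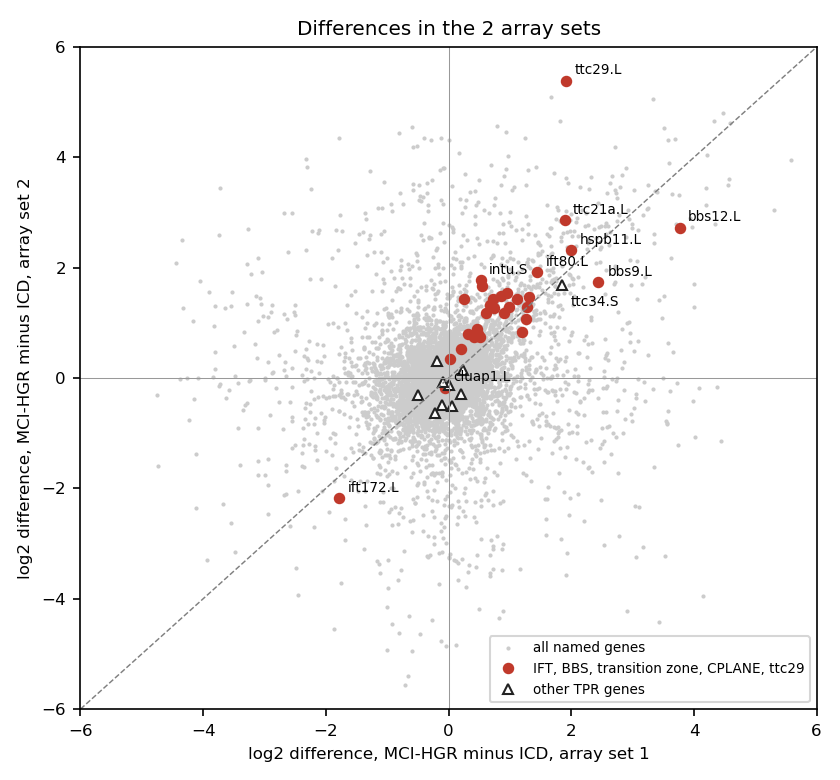
Log2 difference in signal, MCI-HGR minus ICD, in array set 1 (horizontal) and array set 2 (vertical), with grey dots for 11303 named genes, red circles for the ciliary genes and open triangles for other TPR genes, and a dashed line where both sets are equal. Most red circles lie right of 0 and above the dashed line, bbs12.L lies below it at 3.77 in set 1 and 2.72 in set 2, and the triangles other than ttc34.S lie near the origin.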

How the data were processed

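The authors deposited linear signal intensity values, 1 for each probe set on each array, and the submitters' processing notes name MAS5 as the tool. The version, scaling target and detection calls were not stated in the labels used. MAS5 summarises every array by itself, and its dim values are noisy on a log scale. From the deposited intensity values, log2 was taken for 32539 probe sets besides 96 controls, with no further scaling. Gene symbols came from the platform annotation: 15495 probe sets had 1 symbol, 279 several and 16765 none here. All 41 members matched a RefSeq gene table, used for names only. The dimmest 25% of probe sets, with a mean log2 signal equal to a signal under 10.6, did not enter the fits, which left 9380 genes, and 2 members were lost so.

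The test was limma 3.58.1 under R 4.3.3 (lmFit, eBayes with an intensity trend, two-sided, Benjamini-Hochberg over all genes), first with the group as the one term. A planned fit added the replicate number as a block. Labels do not say what the number marks. The differences between replicates 1 and 2 correlated between the groups (r = 0.75 over 24404 probe sets), and signal distributions and a mesoderm gene parted by number, so the number was treated as a batch and the blocked values are printed beside the others. The fits were also run on simulated data, in which the spread of a gene did not follow its signal. That run cannot judge the blocked calls, which rest on the intensity trend. The highest of 17 tag controls served as background.

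Members, roles and lists were chosen with earlier results of these data known. Named by rule were, per role, the genes with the largest and smallest difference and those called, and for other pathway genes the largest called and the lowest. Every member is accounted for, and other genes outside the rule were named after their values were seen. Alternatives were quantile and median scaling, no filter, the mean over probe sets, a pseudocount of 16, no intensity trend, the block and leaving out each array. The 4 arrays limit the precision. No sequences of these genes were used here.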

Additional observations from a re-analysis of the deposited data

How the results depend on the processing

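The count of genes called higher was 0 of 39 without a block, under quantile or median scaling, no filter, the mean over probe sets, a pseudocount of 16 or no intensity trend, and ran from 0 to 2 with 1 array left out. With the replicate block it was 26, with the block and quantile scaling 25, and, in pairings of choices added after seeing the data, 27 with the block and no filter, 22 with the block and the mean over probe sets, 25 with the block and median scaling, 27 with the block and a pseudocount of 16, and 0 with the block and no intensity trend, where 38 of 9380 genes were called in all. Quantile scaling lost b9d1.L and median scaling bbs5.L, the pseudocount gained b9d2.L, and no filter gained ttc29.L. No gene was called lower under any of these settings. A blocked fit with 1 array left out has no residual degree of freedom and was not run. The median log2 difference of the 41 genes ran from 0.64 with the mean over probe sets to 1.03 with median scaling, and from 0.75 to 1.10 with 1 array left out, so its direction held in all of these.

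Some values near 0 changed sign. With the mean over probe sets, blocked or not, cluap1.L was at 0.20 and ttc7b.L at -0.23. With 1 array left out, the log2 difference ran from -0.34 to 0.72 for bbs10.L (-0.18 without MCI-HGR replicate 1), from -0.16 to 0.0025 for ttc14.L, from -0.74 to 0.66 for ttc37.L (0.42 without ICD replicate 1), from -1.12 to 0.26 for ttc39b.L (0.063 without ICD replicate 1), from -0.17 to 0.059 for ttc4.L, from -0.15 to 0.54 for ttc5.L (-0.11 without ICD replicate 2), from -0.10 to 0.22 for ttc7b.L (-0.031 without MCI-HGR replicate 2) and from -0.66 to 0.21 for ttc9.L. The fits with 1 array left out had no block, so their values also take in the difference between the array sets. Within the sets, bbs10.L and ttc5.L were above ICD in both, and ttc14.L and ttc39b.L below it in both. The sign differed between the sets for ttc37.L, ttc4.L, ttc7b.L and ttc9.L. Any further cause was not tested. Low signals near the tag controls limit ift172.L, ttc29.L and bbs9.L, and on ICD replicate 1 also ttc34.S and dync2i2.L.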
